A study of Mus musculus with 6 samples.

Results

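The well-expressed non-coding genes of small intestinal organoids are the 88 genes that the deposited expression table marks as non-coding and that reach a mean of at least 5 FPKM (the fragments of a gene scaled to its length and to the depth of each library) over the 6 libraries. They are 88 of 4969 non-coding genes and of 21397 genes in all. Organoids are epithelial buds grown in culture from intestinal crypts, the pockets that hold the stem cells. All libraries came from organoids of Fpr2f/f mice, in which the Fpr2 alleles carry loxP sites and no Cre was named for these samples. The MMK-1 group was treated for 5 days with MMK-1, a synthetic peptide that activates formyl peptide receptor 2, and the control group with 0.1% DMSO for 5 days, with 3 libraries in each group. The protocol gives the dose as 1 µmol/L, while the treatment label of the samples reads 1 mM. By the study's methods the mice were 8 to 12 weeks old, and each sample pooled organoids of 3 mice. Whether samples share mice is not given in the sources used here, so the p-values measure only the spread between these pooled samples.

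The members were chosen by their mean level over all libraries, so their levels are a description. The genes just inside the limit were Gm12576 at a mean of 5.00 FPKM, 5033421B08Rik at 5.01 and Fam120aos at 5.03, and those just outside it were 9330162012Rik at 4.90, Gm41731 at 4.83 and Gm15331 at 4.75. The limit of 5 FPKM was reached by the group mean in both groups for 63 members, in the control group only for 11 and in the MMK-1 group only for 14. A gene of the last 2 kinds is a member through the group in which it is high, so no count below supports a direction for non-coding genes as a whole.

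Long non-coding RNAs are transcripts that are not translated into a known protein. Some are scaffolds that act in the nucleus, such as Neat1, around which paraspeckles form. Others are hosts: their introns are cut out and trimmed into small nucleolar RNAs (snoRNAs), which guide the chemical modification of ribosomal and spliceosomal RNA, or their transcripts carry hairpins that are cut into microRNAs (miRNAs). snoRNAs of the C/D kind guide methylation and bind fibrillarin, and those of the H/ACA kind guide pseudouridylation and bind dyskerin. Many transcripts of genes for the translation machinery, and of snoRNA hosts, begin with a C followed by a run of pyrimidines, the 5′ terminal oligopyrimidine tract. A host gene's level in this table is that of its listed transcript, and neither snoRNAs nor mature miRNAs were measured on their own. For Snhg8, Dancr and Mir17hg the length implied by the table, 785, 1278 and 2339 bases, equals the whole span of the gene in RefSeq. For these genes the counted sequence includes the snoRNA or hairpin, and spliced and unspliced RNA cannot be told apart.

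By NCBI gene number, 85 of the 88 members matched RefSeq on GRCm38.p6, which lists all 85 as long non-coding RNAs. Another 2, 2010103J01Rik and Gm26917, matched GENCODE only, and 2810001A02Rik had no position. By name, 16 members were snoRNA hosts on a list of such genes, 2 were named as miRNA hosts, 5 were known long non-coding RNAs, 9 were named as opposite-strand transcripts of a coding gene, 24 had RIKEN clone names, 31 were predicted genes and 1 was Gt(ROSA)26Sor. Transcript lengths implied by the table ran from 105 to 20773 bases with a median of 1123. In GENCODE, 20 members held at least 1 annotated snoRNA on their own strand and 6 held a miRNA hairpin, and 32 members overlapped an exon of another, protein-coding gene, where reads of both genes cannot be told apart unless the counting used strand, which is not given in the sources used here.

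Starts of hosts that carry such a tract are shown, to set the letters beside the values below. The lines give 15 bases before the RefSeq start and 30 bases from it on, on GRCm38, 5′ to 3′, and capitals mark a run of at least 5 bases of C and T that begins with C no more than 5 bases from the start.
Snhg7 (chr2:26640215-26640259, minus strand): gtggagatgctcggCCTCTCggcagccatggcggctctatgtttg
Snhg3 (chr4:132353657-132353701, minus strand): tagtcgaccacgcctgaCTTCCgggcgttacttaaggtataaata
Snhg8 (chr3:123508307-123508351, minus strand): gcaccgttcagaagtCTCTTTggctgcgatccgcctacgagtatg
Snhg12 (chr4:132308663-132308707, plus strand): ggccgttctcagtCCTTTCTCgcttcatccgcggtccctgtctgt
Gas5 (chr1:161035151-161035195, plus strand): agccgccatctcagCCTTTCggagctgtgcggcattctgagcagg
2410006H16Rik (chr11:62602862-62602906, plus strand): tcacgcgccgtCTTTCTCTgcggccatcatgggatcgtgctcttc
1110038B12Rik (chr17:34952439-34952483, minus strand): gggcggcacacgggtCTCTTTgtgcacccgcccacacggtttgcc
Among the members with a start in the RefSeq table, 9 of 18 that hold snoRNAs had such a run at a start, against 11 of the 49 others and 18.6% of 27025 genes of all kinds. Gas5 has a second listed start without the run, and the hosts Snhg1, Snhg5, Snhg15, Snhg16, Snhg17, Snhg20, Dancr, Zfas1 and Gm53208 had none in this window by these letters. The run was found in Snhg7, Snhg3, Snhg8, Gm36220, Rab26os and 1110038B12Rik, which were higher with MMK-1. Snhg12, Gas5 and 2410006H16Rik also had it and were not higher. Of the hosts named as having none, Zfas1 was lower and the others were higher. The difference was not tested.

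The snoRNAs inside the hosts are shown by examples of each kind, so that both sets of boxes can be seen, from GENCODE transcripts on GRCm38. Capitals mark ACA close to the 3′ end in the H/ACA snoRNA, and TGATGA and CTGA in the C/D snoRNAs.
Snora17 in Snhg7 (chr2:26639190-26639321, minus strand): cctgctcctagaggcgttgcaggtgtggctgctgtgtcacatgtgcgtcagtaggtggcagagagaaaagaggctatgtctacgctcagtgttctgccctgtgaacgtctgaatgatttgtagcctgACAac
Snord50a in Snhg5 (chr9:88521529-88521600, minus strand): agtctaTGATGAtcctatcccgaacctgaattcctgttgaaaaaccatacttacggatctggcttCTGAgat
Snord47 in Gas5 (chr1:161038082-161038158, plus strand): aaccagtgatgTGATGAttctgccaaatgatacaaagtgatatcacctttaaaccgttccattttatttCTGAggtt
By these letters, 34 of the 53 annotated snoRNA entries in 20 members were placed as C/D, 27 with both boxes and 7 on CTGA alone, 14 as H/ACA and 5 could not be placed. Some entries overlap each other.

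The mature miRNAs of the hairpins inside members are shown because members of a seed family share target sites. They are given with the seed, bases 2 to 8, in capitals, from RefSeq on GRCm38.
miR-200b-3p in Gm13648 (chr4:156055685-156055706, minus strand): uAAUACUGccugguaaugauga
miR-429-3p in Gm13648 (chr4:156053916-156053937, minus strand): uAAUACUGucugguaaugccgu
miR-200a-3p in Gm13648 (chr4:156054911-156054932, minus strand): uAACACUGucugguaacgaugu
miR-92a-3p in Mir17hg (chr14:115044476-115044496, plus strand): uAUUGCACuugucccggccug
miR-194-5p in 2010103J01Rik (chr1:185313325-185313346, plus strand): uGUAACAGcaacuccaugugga
miR-215-5p in 2010103J01Rik (chr1:185313610-185313630, plus strand): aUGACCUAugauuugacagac
miR-22-3p in Mir22hg (chr11:75463772-75463793, plus strand): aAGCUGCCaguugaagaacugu
miR-31-5p in Gm49890 (chr4:88910614-88910635, minus strand): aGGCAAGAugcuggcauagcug
Of these, miR-200b-3p and miR-429-3p share a seed. Both lie with miR-200a inside Gm13648, a predicted gene whose name does not show that it is a host.

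The libraries held 35512739 to 37537463 fragments, computed from the steps of the FPKM values, and 99.7% of them lay on listed genes. Epithelial markers were present in every library, with 5 genes summing to 1802 to 1813 FPKM in controls and 1481 to 1610 with MMK-1. The 5 leukocyte markers summed to at most 0.262 FPKM. The sum of 4 stem cell markers was 40.4 to 40.7 FPKM in controls and 289 to 304 with MMK-1, that of 5 Paneth cell markers 389 to 430 and 1266 to 1387, and that of 7 enterocyte markers 7863 to 8008 and 4523 to 4879. All 4 stem cell markers rose, Olfm4 the most, from a mean of 4.35 to 173 FPKM. Of the enterocyte markers Fabp1 rose, from a mean of 2218 to 2506 FPKM, while the other 6 fell. The 4 markers of proliferating cells summed to 159.8 to 161.4 and 251 to 267 FPKM, and the 5 enteroendocrine markers to 292 to 308 and 417 to 426. Of the 5 goblet cell markers, which summed to 1510 to 1645 and 1876 to 2047 FPKM, Muc2 fell and the other 4 rose. The 4 tuft cell markers summed to 1.25 to 1.45 and 1.37 to 1.62 FPKM. In these bulk libraries a change in the number of cells of a type and a change in RNA per cell cannot be told apart, and the part of this shift in the values below was not tested.

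The members' fragments lay on few genes. They made up 0.520% ± 0.0188 (SD, n = 3) of a control library and 0.555% ± 0.0173 of an MMK-1 library, a difference with p = 0.2 in an exact two-sided permutation test, where 0.1 is the smallest p for 3 against 3 libraries. Gm26917 alone held 0.121% ± 0.0181 in controls and 0.189% ± 0.0137 with MMK-1. Without it the members' share was 0.399% ± 0.000733 in controls and 0.366% ± 0.00395 with MMK-1 (exact permutation p = 0.1), so this single gene turned the direction of the sum. It received 53189, 41500 and 41395 fragments without MMK-1 and 61958, 68750 and 74890 after treatment, and the groups did not overlap. GENCODE places Gm26917 at chr17:39843013-39846341 on the plus strand, a span of 3329 bases that is shorter than the length of 5792 bases implied by the table, and the 3′ end of a ribosomal RNA gene on the minus strand, CT010467.1, lies beyond its end with 11 bases between them. Whether its fragments came from ribosomal RNA was not tested.

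MMK-1 was compared with control gene by gene with limma on log2(FPKM + 1), fitted over the 10551 genes with a mean of at least 1 FPKM, and a gene was called at an adjusted p of at most 0.05. Of the 88 members, 39 were higher with MMK-1, 29 were lower and 20 were not called. The called members were 77.3% of all members, and 73.2% of all tested genes were called. Higher calls were 44.3% of members and 48.5% of all tested genes, and lower calls 33% and 24.7%. The median log2 fold change was 0.09 over the members, 0.13 over all tested genes, 0.11 over the 7218 protein-coding genes with a mean of at least 5 FPKM and -0.03 over the 282 tested non-coding genes under the limit of 5. Under upper-quartile scaling, which moved the median of all genes to 0.03, the members split into 33 higher and 37 lower, and all tested genes into 4045 higher and 3589 lower. The groups did not overlap for 67 members, which is 76.1%, against 76.8% of all tested genes.

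At the study's threshold of a 2-fold change with p of at most 0.05, 5 members were higher, or 5.68%, against 3.39% of all tested genes. Another 12 members were lower at that threshold, or 13.6%, against 3.65% of all tested genes. Of the 12 lower, 6 reached the limit of 5 FPKM only in the control group, and of the 5 higher, 2 reached it only in the MMK-1 group, so their membership and their direction are not separate facts. Of those higher, 1 was a predicted gene, 1 a RIKEN clone, 1 Gt(ROSA)26Sor and 2 were snoRNA hosts. Of those lower, 9 were predicted genes, 2 were RIKEN clones and 1 was an opposite-strand transcript.

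**Figure D1:**
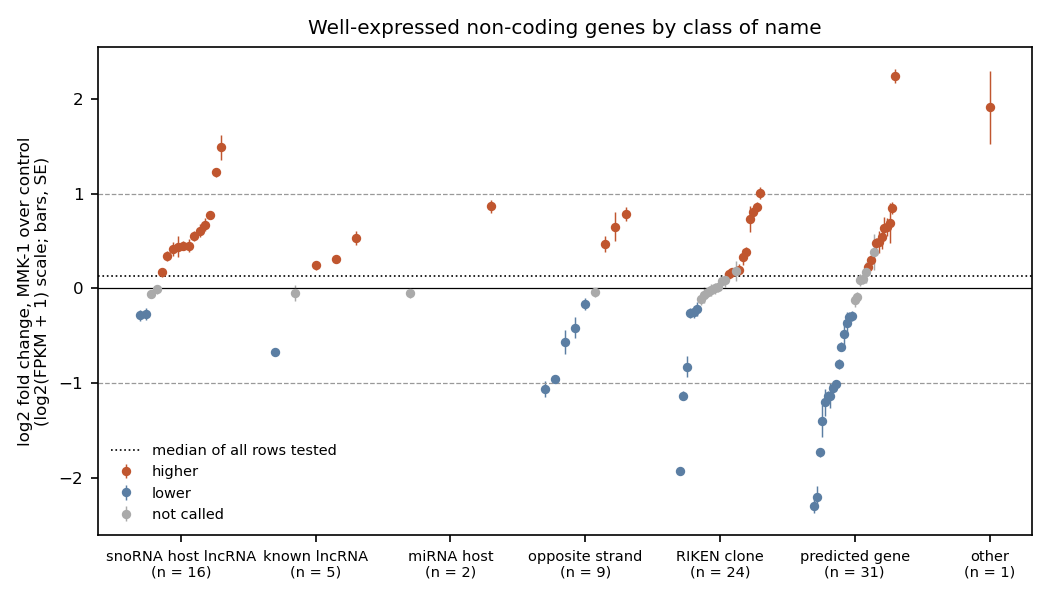
Log2 fold change of MMK-1 over control for each of the 88 members (log2(FPKM + 1) scale, bars are standard errors of the limma fit), grouped by the class of their name and coloured by call. The dotted line is the median of all tested genes, 0.13, the dashed lines mark 2-fold, and most snoRNA hosts lie above 0 while 15 of the 31 predicted genes were lower.

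Of the classes with 5 or more members, snoRNA hosts had the highest share of higher calls, with 12 of 16 higher, 2 lower and 2 not called, and a median log2 fold change of 0.45. Among all tested genes 48.5% were higher and 24.7% lower, with a median of 0.13. Under upper-quartile scaling 11 were higher and 4 lower, with a median of 0.33. The list was written with earlier results of these data known, so its counts are a description.

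Snhg4 had 3.24, 3.36 and 2.97 FPKM in the control libraries and 12.5, 12.1 and 8.22 FPKM with MMK-1. Every MMK-1 library lay above every control, with replicate 3 lower than the other 2, and the log2 fold change was 1.49 (SE 0.131, adjusted p = 1.2e-05). The nearest coding gene by RefSeq, Matr3, which encodes a nuclear matrix protein that binds RNA, lies 3842 bases away and had 26.2, 26.8 and 27.0 FPKM in controls and 52.9, 54.1 and 34.0 with MMK-1. Replicate 3 was the lowest MMK-1 library for both genes, and Matr3's log2 fold change was 0.77 (SE 0.151, adjusted p = 0.0016). Snhg4 also overlaps an exon of Gm28285, which GENCODE lists as protein-coding, and with no strand in the tables reads of both cannot be told apart.

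Snhg7, which holds the H/ACA snoRNAs Snora17 and Snora43, had 5.87, 5.92 and 6.42 FPKM in controls and 15.8, 15.3 and 15.5 with MMK-1. The groups were far apart and the MMK-1 libraries close to each other, with a log2 fold change of 1.23 (SE 0.0478, adjusted p = 1.0e-07). Its neighbours Dipk1b and Agpat2 were not called, at 0.29 (adjusted p = 0.062) and 0.00 (adjusted p = 0.95).

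Snhg3, the host of Snora73a and Snora73b, RNAs that act in the processing of the ribosomal RNA precursor, rose from 21.3, 20.2 and 21.1 FPKM to 35.2, 36.5 and 37.6 FPKM, a log2 fold change of 0.78 (SE 0.0435, adjusted p = 7.9e-07). The groups did not overlap. Its nearest coding gene by RefSeq, Phactr4, 2236 bases away, was called higher at 0.14 (SE 0.0538, adjusted p = 0.037). Rcc1, which encodes the nucleotide exchange factor of Ran and lies 6183 bases away by RefSeq, was at 0.52 (SE 0.0404, adjusted p = 5.5e-06), but in GENCODE an exon of Rcc1 overlaps Snhg3, so their reads cannot be told apart with certainty.

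Snhg8 rose by 0.67, Snhg15 by 0.61, Snhg5 by 0.55, Snhg6 by 0.45, Snhg1 by 0.45, Dancr by 0.44, Snhg16 by 0.42, Snhg20 by 0.34 and Snhg17 by 0.17 on the log2 scale, with adjusted p-values from 2.2e-05 to 0.011. In all 9 every MMK-1 library lay above every control library. Snhg17 was not called under upper-quartile scaling, where its log2 fold change was 0.07 (adjusted p = 0.23), or without control replicate 1, at 0.14 (adjusted p = 0.051). Snhg20 was at 0.23 under that scaling (adjusted p = 0.0058).

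4 hosts on the list did not rise. Gas5, a host of C/D snoRNAs whose transcript accumulates in growth-arrested cells, had the highest mean FPKM over the 6 libraries of all members, with 278, 281 and 291 FPKM in controls and 262, 282 and 271 with MMK-1. In the MMK-1 group its mean of 271.8 FPKM was below those of Gm26917 at 326.6 and Gm43305 at 275.5. Its groups overlapped, and its log2 fold change of -0.06 (SE 0.0415, adjusted p = 0.24) was not called, though at -0.18 it was called lower under upper-quartile scaling (adjusted p = 0.0045). Snhg12 was at 35.4, 35.1 and 38.1 FPKM in controls and 35.5, 36.8 and 35.5 with MMK-1, at a log2 fold change of -0.01 (adjusted p = 0.85), and -0.13 under upper-quartile scaling, where it was called lower (adjusted p = 0.036). Zfas1, the host of Snord12, fell from 119, 133 and 136 FPKM to 102, 105 and 112 (log2 fold change -0.28, SE 0.0596, adjusted p = 0.0023). Epb41l4aos fell from 47.0, 54.8 and 54.8 FPKM to 41.9, 42.7 and 44.8 (log2 fold change -0.27, SE 0.0634, adjusted p = 0.0046).

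**Figure D2:**
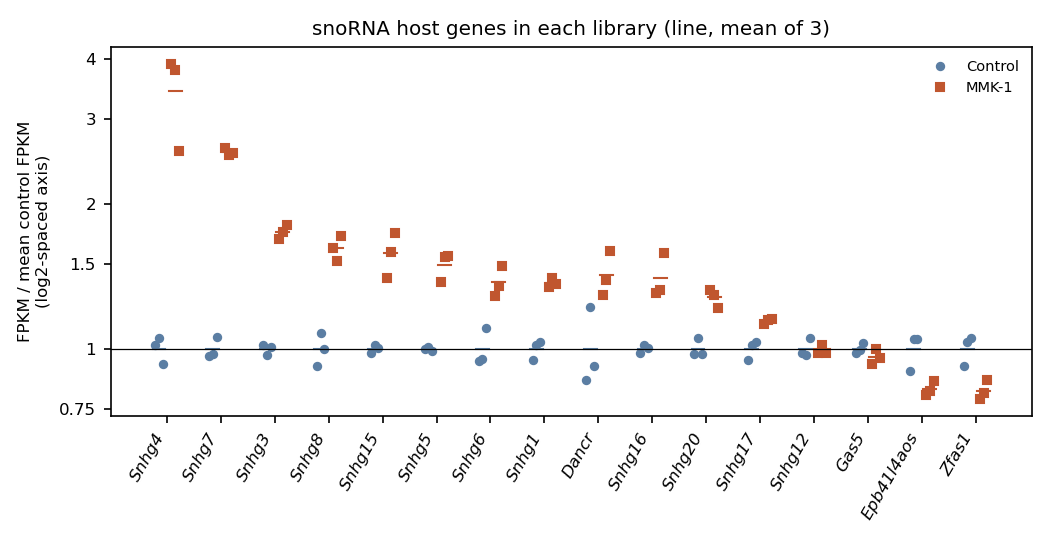
FPKM of the 16 listed snoRNA hosts in each library, divided by the mean of the 3 control libraries (log2-spaced axis), with circles for control, squares for MMK-1 and lines for the means of 3. From Snhg4 on the left to Snhg17 the MMK-1 libraries lie above the controls, while Epb41l4aos and Zfas1 on the right lie below.

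Among the 20 members that hold a snoRNA by annotation, 15 were higher and 3 lower, against 48.5% and 24.7% of all tested genes, and under upper-quartile scaling 12 were higher and 5 lower. The 8 hosts of H/ACA snoRNAs only included 7 that were higher and 1 that was lower, the median log2 fold change being 0.63, and a range from -0.27 to 1.23. The 10 hosts whose placed snoRNAs were all C/D included 7 that were higher and 2 that were lower, with a median of 0.43 and a range from -0.28 to 0.69. Among these, Snhg1 also holds 1 entry that could not be placed. The ranges overlap over most of their width, and the difference between the 2 kinds was not tested. Snhg4, for which no strand was in the tables used, is not among the 20.

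5 of the 20 carry no host name. 2410006H16Rik, which holds Snord49a, Snord49b and Snord65, fell from 257, 282 and 277 FPKM to 237, 212 and 233 (log2 fold change -0.26, SE 0.0553, adjusted p = 0.0026). 1110038B12Rik, which holds Snord52, had 86.5, 81.7 and 86.0 FPKM in controls and 95.3, 88.5 and 100.2 with MMK-1. Its log2 fold change of 0.16 was called (adjusted p = 0.023) but not under upper-quartile scaling, at 0.04 (adjusted p = 0.47), without a filter on low values (adjusted p = 0.055), or without control replicate 2 (adjusted p = 0.099), control replicate 3 (adjusted p = 0.050) or MMK-1 replicate 1 (adjusted p = 0.059). Gm36220 with Snord104, Rab26os with Snord60 and Gm53208 with an H/ACA snoRNA were higher, at log2 fold changes of 0.69 (SE 0.212), 0.65 (SE 0.156) and 0.64 (SE 0.109), although Gm36220, with 105 bases the shortest member, was not called under upper-quartile scaling (adjusted p = 0.051), without a filter (adjusted p = 0.079) or without MMK-1 replicate 2 (adjusted p = 0.056). Without control replicate 1 Gm36220 was at 0.45 (adjusted p = 0.032).

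Proteins that bind snoRNAs or belong to RNase P were listed as partners. Of 22 tested, 17 were higher, none was lower and 5 were not called, and their median log2 fold change was 0.38. The largest changes were those of Rpp25, an RNase P subunit, at 1.14, and Naf1, an assembly factor of H/ACA particles, at 0.75. Fbl, the methylase fibrillarin of C/D particles, was at 0.46, and Dkc1, the pseudouridine synthase dyskerin of H/ACA particles, at 0.68. These counts stand beside 48.5% higher among all tested genes, and under upper-quartile scaling 14 were higher and 1 lower.

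Known long non-coding RNAs moved in both directions, with 3 of the 5 so classed higher, 1 lower and 1 not called. Neat1, the scaffold of paraspeckles, had 29.8, 29.97 and 29.7 FPKM in controls and 35.9, 36.7 and 39.3 with MMK-1. The control libraries were nearly alike and all MMK-1 libraries lay above them, with a log2 fold change of 0.31 (SE 0.0444, adjusted p = 0.00023). Of 14 listed paraspeckle proteins all 14 were higher, with a median log2 fold change of 0.44, from 0.16 for Nono to 1.30 for Cpsf6, and under upper-quartile scaling 12 were called higher and none lower. Among all tested genes 48.5% were higher. MMK-1 replicate 3 was the lowest MMK-1 library for 7 of the 14, and for Cpsf6 the MMK-1 libraries were at 33.6, 32.4 and 18.1 FPKM. Without that library all 14 were still called higher, and Cpsf6 was at 1.57.

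Malat1, a nuclear speckle RNA whose gene lies next to Neat1, had 38.6, 34.1 and 39.0 FPKM in controls and 40.03, 36.4 and 31.98 with MMK-1, and these groups overlapped (log2 fold change -0.05, SE 0.0831, adjusted p = 0.64). Neat1 took 0.0619% ± 0.000318 of the fragments of a control library and 0.0775% ± 0.00364 of an MMK-1 library, and Malat1 0.0260% ± 0.00189 and 0.0252% ± 0.00282.

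Firre, an X-linked RNA that is retained in the nucleus, was the 1 lower gene of the 5 members so classed. It fell from 38.4, 39.3 and 38.8 FPKM to 23.1, 24.1 and 25.0 (log2 fold change -0.67, SE 0.0429, adjusted p = 1.8e-06). Oip5os1, also called Cyrano, which binds miR-7, rose from 23.6, 23.1 and 23.2 FPKM to 37.4, 35.3 and 29.9 (log2 fold change 0.53, SE 0.0744, adjusted p = 0.00022). Norad, which binds Pumilio proteins, rose from 23.6, 22.4 and 22.0 FPKM to 27.1, 28.1 and 25.9 (log2 fold change 0.24, SE 0.0470, adjusted p = 0.0015). Under upper-quartile scaling Neat1 was at 0.20 (adjusted p = 0.0013) and Norad at 0.13 (adjusted p = 0.041). Within the list of known long non-coding RNAs as a whole, 14 were tested, 7 of them members, and 7 were higher and 2 lower, beside 48.5% and 24.7% of all tested genes. Under upper-quartile scaling 6 were higher and 4 lower.

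Of the 6 members that hold a miRNA hairpin, 3 were higher and 3 were not called, beside 48.5% higher among all tested genes, and under upper-quartile scaling 3 were higher and 2 lower. Gm13648, with the hairpins of miR-200b, miR-200a and miR-429, miRNAs that keep epithelial cells from losing their epithelial character by repressing Zeb1 and Zeb2, had 7.27, 6.02 and 6.83 FPKM in controls and 12.3, 12.8 and 13.5 with MMK-1. These groups did not overlap, and its log2 fold change was 0.85 (SE 0.0676, adjusted p = 6.5e-06). Ttll10, the nearest coding gene by RefSeq, fell, from 3.98 ± 0.318 to 2.44 ± 0.293 FPKM (log2 fold change -0.53, adjusted p = 0.00026). In GENCODE Gm13648 overlaps an exon of Ttll10, so reads of both cannot be told apart with certainty.

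Mir17hg is the host of the miR-17-92 cluster and a known target of Myc, but its span in RefSeq holds only the miR-92a-1 hairpin of that cluster. It had 3.79, 3.85 and 3.15 FPKM in controls and 7.57, 7.59 and 6.91 with MMK-1. Each MMK-1 library was above each control, with a log2 fold change of 0.87 (SE 0.0717, adjusted p = 8.2e-06). Snhg20, the third that rose, holds a miR-6516 hairpin beside its snoRNA.

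2010103J01Rik, which carries miR-194 and miR-215, miRNAs abundant in intestinal epithelium, was at 8.74 ± 0.503 FPKM in controls and 10.2 ± 1.88 with MMK-1 and was not called (log2 fold change 0.19, adjusted p = 0.14), though without MMK-1 replicate 1 it was called higher, at 0.29 (adjusted p = 0.024), and without MMK-1 replicate 2 it was at 0.056 (adjusted p = 0.50). Mir22hg had a log2 fold change of -0.05 (adjusted p = 0.43), and -0.16 under upper-quartile scaling, where it was called lower (adjusted p = 0.017). Gm49890, with miR-31, had -0.09 (adjusted p = 0.13), and -0.20 under that scaling (adjusted p = 0.0063).

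**Figure D3:**
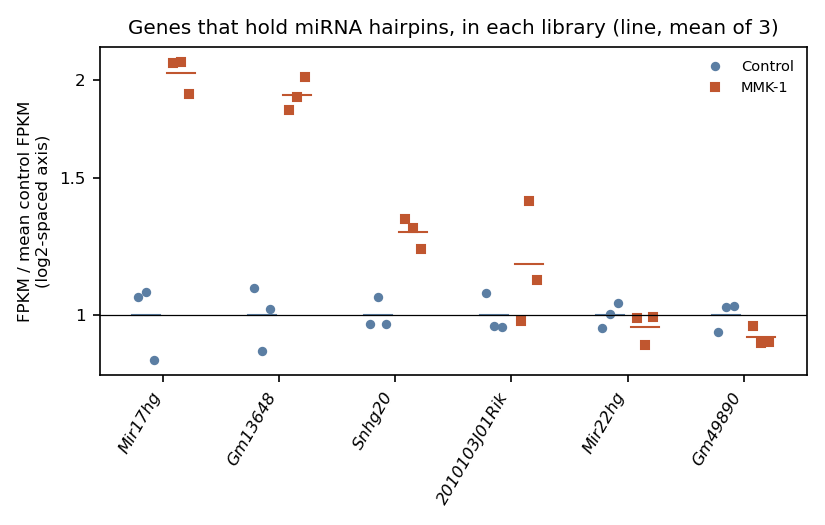
FPKM of the 6 members that hold miRNA hairpins in each library, divided by the mean of the 3 control libraries (log2-spaced axis), with circles for control, squares for MMK-1 and lines for means. Mir17hg and Gm13648 lie near 2 with MMK-1 and Snhg20 between 1 and 1.5, while the groups of the other 3 genes overlap.

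Gm38905, a predicted gene at chr6:128914114-128920059, had the largest rise of all members. It had 10.9, 10.2 and 9.75 FPKM in controls and 50.5, 48.4 and 58.5 with MMK-1, or 132 to 148 fragments and 630 to 786 fragments. The groups were far apart, with a log2 fold change of 2.24 (SE 0.0729, adjusted p = 3.8e-08). Its nearest coding genes, Clec2g and Clec2i, genes of C-type lectins 14322 and 15946 bases away, were under the 1 FPKM needed for a test, with Clec2g at 0 in both groups and Clec2i at means of 0.0148 and 0.0716 FPKM.

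Gt(ROSA)26Sor is the non-coding gene of the ROSA26 locus, which is transcribed in nearly all mouse cells and is widely used as a site for inserting transgenes. It had 5.47, 5.13 and 5.43 FPKM in controls and 37.1, 31.4 and 10.01 with MMK-1, from 309 to 329 fragments in controls and 2117, 1809 and 597 fragments with MMK-1. All 3 MMK-1 libraries lay above all controls, but replicate 3 differed from the control mean by 16.2% of the difference in replicates 1 and 2. Over the 17 members past the 2-fold threshold the median of that percentage was 98.7% and the next lowest was 55.3%. Its log2 fold change was 1.91 (SE 0.388, adjusted p = 0.0019), and 2.47 without MMK-1 replicate 3.

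The coding genes beside Gt(ROSA)26Sor did not have this pattern. Setd5, whose start lies 18 bases from its own on the other strand, had 6.17, 6.18 and 5.82 FPKM in controls and 7.84, 7.77 and 8.38 with MMK-1, highest in replicate 3. Thumpd3, which overlaps it from the opposite strand, had 17.6, 16.04 and 16.2 FPKM in controls and 14.9, 15.3 and 15.2 with MMK-1. Their log2 fold changes were 0.35 (adjusted p = 0.00024) and -0.13 (adjusted p = 0.041).

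**Figure D4:**
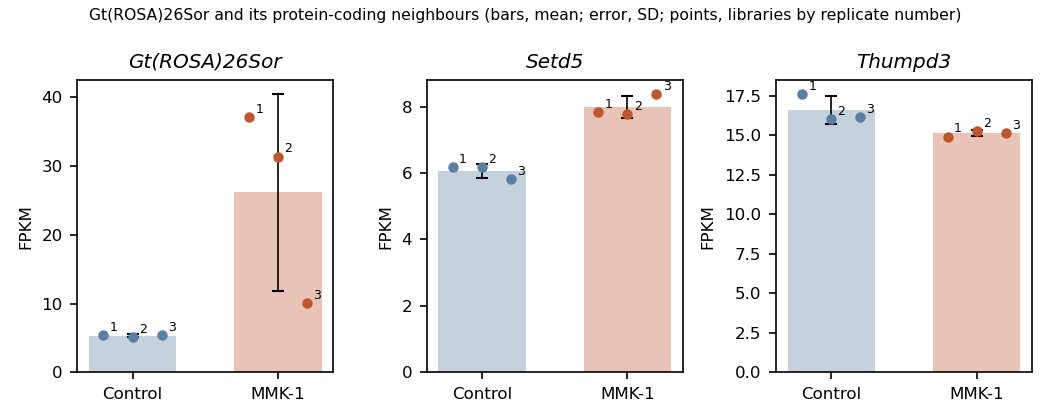
FPKM of Gt(ROSA)26Sor and of its neighbours Setd5 and Thumpd3 in each library, with bars for means, error bars for SD (n = 3) and points numbered by replicate. MMK-1 replicate 3 of Gt(ROSA)26Sor, at 10.01 FPKM, stands between the controls and the other 2 MMK-1 libraries, and does not stand apart in the other 2 genes.

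2310040G24Rik rose from 3.41, 3.44 and 3.04 FPKM to 7.78, 7.07 and 7.99, which put it at the edge of the 2-fold threshold with a log2 fold change of 1.00 (SE 0.0623, adjusted p = 1.5e-06). It and 1600020E01Rik lie on either side of Pcbp1, which encodes an RNA-binding protein and had a log2 fold change of 0.32 (adjusted p = 0.00024). 1600020E01Rik had 5.76, 4.66 and 5.70 FPKM in controls and 12.3, 8.99 and 7.87 with MMK-1, a log2 fold change of 0.73 (SE 0.138, adjusted p = 0.0013). 2810025M15Rik, 9330151L19Rik and Fam120aos completed the 12 largest rises, at log2 fold changes of 0.86, 0.81 and 0.79. Gm43305, with 207, 196 and 189 FPKM in controls and 261, 267 and 298 with MMK-1, was among the most abundant members and rose by 0.48 (SE 0.0589, adjusted p = 9.6e-05), while Abhd4, the nearest coding gene in the tables at 23272 bases, was at -0.67 (adjusted p = 3.8e-06).

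Of the 12 members that fell past 2-fold, the nearest coding gene was lower for 6, higher for 1, not called for 2 and not tested for 3. For the 12 largest rises it was higher for 5, lower for 2, not called for 2 and not tested for 3, and among all tested genes 48.5% were higher and 24.7% lower. Gm40656, at chr13:4252165-4258461, had 29.0, 29.0 and 28.3 FPKM in controls and 5.35, 5.51 and 4.39 with MMK-1, the largest fall of all members (log2 fold change -2.30, SE 0.0708, adjusted p = 2.9e-08). By RefSeq it lies 3804 bases from Akr1c19 and 9711 bases from Akr1c12, genes of aldo-keto reductases, which fell by 2.79 (SE 0.0408) and 1.18 (SE 0.0447) on the log2 scale.

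Gm41570 had 24.7, 23.3 and 22.2 FPKM in controls and 5.13, 4.55 and 3.40 with MMK-1 (log2 fold change -2.20, SE 0.109, adjusted p = 3.9e-07). Cyp4f16, a gene of a fatty acid hydroxylase family that lies 11816 bases away, fell by 1.497 (SE 0.0476). Gm10768 had 123, 125 and 128 FPKM in controls and 62.8, 63.5 and 58.8 with MMK-1 (log2 fold change -1.01, SE 0.0431, adjusted p = 1.6e-07), and Abcc2, which encodes an exporter of conjugated compounds and lies 471 bases away by RefSeq, fell by 1.21 (SE 0.0438). In GENCODE Gm40656 overlaps an exon of Akr1c19 and Gm10768 an exon of Abcc2, and reads of the genes in each pair cannot be told apart. Gm35761 overlaps Guca2b, the gene of uroguanylin, a peptide that controls intestinal fluid secretion. The fall of Gm35761 was 1.05 (SE 0.0538) and that of Guca2b 1.09 (SE 0.04996), and Guca2a, the gene of guanylin 18820 bases away, fell by 1.11 (SE 0.0412). No strand was in the tables for Gm35761, so whether reads of Guca2b were counted for it could not be told.

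2010001A14Rik had 23.4, 23.7 and 23.9 FPKM in controls and 5.79, 5.39 and 5.32 after MMK-1. The spread was small in both groups (log2 fold change -1.92, SE 0.0454, adjusted p = 6.8e-09). Its divergent neighbour Sap30l, whose start lies 170 bases away, fell by 0.21 (SE 0.0513). Gm5485 was among the 12 most abundant members, with 250, 253 and 262 FPKM in controls and 74.6, 72.7 and 81.5 with MMK-1 (log2 fold change -1.73, SE 0.0496, adjusted p = 1.9e-08). GENCODE lists Gm5485 itself as protein-coding, while RefSeq lists it as a long non-coding RNA. The nearest other coding genes, Morc1 and Dppa2, were under 1 FPKM in both groups.

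0610005C13Rik fell from 67.2, 68.4 and 67.0 FPKM to 29.8, 29.0 and 32.2 (log2 fold change -1.13, SE 0.0468, adjusted p = 1.4e-07), and Bcat2, a branched-chain amino acid aminotransferase gene that it overlaps on the opposite strand, fell by 0.49 (SE 0.0604). The 12 largest falls also included Gm33370 at -1.40 (SE 0.169), Gm36738 at -1.20 (SE 0.143), Gm46220 at -1.13 (SE 0.0487) and Gm52687 at -1.13 (SE 0.135). Arhgef16, which Gm52687 overlaps, was not called at -0.09 (adjusted p = 0.11). Anxa3 and Bmp2k, the coding genes nearest to Gm33370, were higher, at 0.61 and 0.39, but lie 64302 and 75523 bases away.

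Abhd11os did not follow the coding gene on its opposite strand. Abhd11os had 172, 169 and 172 FPKM in controls and 87.2, 85.4 and 91.1 with MMK-1 (log2 fold change -0.95, SE 0.0391, adjusted p = 1.3e-07), whereas Abhd11, a hydrolase gene, rose by 0.29 (SE 0.0444, adjusted p = 0.00033).

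Of the 9 opposite-strand transcripts, 3 were higher, 5 were lower and 1, Brip1os, was not called, where all tested genes had 48.5% higher and 24.7% lower. Tnfsf13os fell by 0.56 (SE 0.127), and the genes on its opposite strand differed, with Senp3, a protease of SUMO, at 0.47 and Tnfsf13, the gene of the B cell factor APRIL, at -0.25. Gata6os was called lower at -0.16 with overlapping groups (adjusted p = 0.045), but not with limma-voom (adjusted p = 0.081), without a filter (adjusted p = 0.10), or without control replicate 1 (adjusted p = 0.12), control replicate 2 (adjusted p = 0.066), control replicate 3 (adjusted p = 0.11), MMK-1 replicate 1 (adjusted p = 0.15) or MMK-1 replicate 2 (adjusted p = 0.11). Its coding partner Gata6, a transcription factor of the intestinal epithelium, was not called at 0.08 (adjusted p = 0.073). Of the 24 members with RIKEN clone names, 9 were higher, 6 lower and 9 not called, from -1.92 to 1.00, and of the 31 predicted genes 10 were higher, 15 lower and 6 not called, from -2.30 to 2.24. Both sets of counts stand beside 48.5% higher and 24.7% lower among all tested genes. Under upper-quartile scaling the RIKEN clones turned to 6 higher and 8 lower, the predicted genes were 8 higher and 17 lower, and the opposite-strand transcripts 3 higher and 6 lower. Gm11695 was among the predicted genes that fell, from 38.5 ± 1.71 to 21.7 ± 1.06 FPKM, and Slc16a5, a monocarboxylate transporter gene it overlaps on the opposite strand, fell by 0.35 (SE 0.0804). Gm9926 fell from 34.3 ± 1.65 to 22.1 ± 0.860 FPKM (log2 fold change -0.62, SE 0.0499, adjusted p = 7.3e-06).

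By the spans of genes in RefSeq, 40 members had a protein-coding neighbour that overlapped them or started within 1000 bases on the other strand, in 47 pairs, and both genes were tested in 41. In 21 pairs both genes were called. They had the same direction in 14, with 8 pairs higher and 6 lower, and opposite directions in 7. Since 48.5% of all tested genes were higher and 24.7% lower, called genes often share a direction, and nothing is read from the split. Exon overlaps found in GENCODE only, such as those of Gm40656 with Akr1c19, Gm10768 with Abcc2, Gm13648 with Ttll10, Snhg3 with Rcc1 and Snhg16 with St6galnac2, are not among these pairs. Pairs with the same direction included Fam120aos and Fam120a, whose starts lie 52 bases apart, at 0.79 and 0.52, and Gm15545 and Prmt1, a methyltransferase of arginine in proteins, at 0.49 and 0.90. Pairs with opposite directions included 5033421B08Rik at 0.39 and Slc7a15, an amino acid transporter gene, at -1.999, and Snhg1 at 0.45 and Slc3a2, the common chain of several amino acid transporters, at -0.49. Across the 41 pairs Pearson's r of the 2 log2 fold changes was 0.22 and Spearman's rho 0.35, a description over pairs that share libraries and, where they overlap, possibly reads.

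**Figure D5:**
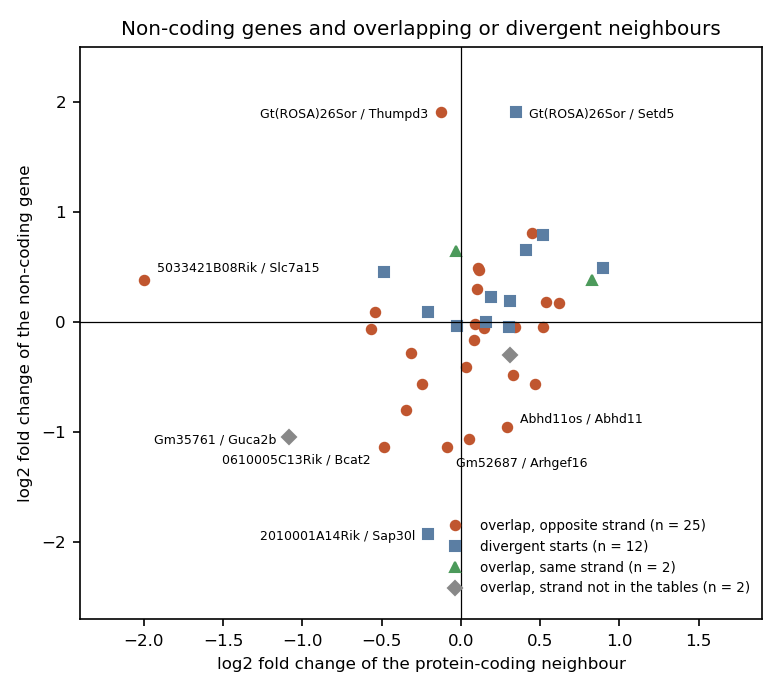
Log2 fold change of each member against that of its overlapping or divergent protein-coding neighbour for the 41 pairs in which both were tested, with the kind of pair shown by symbol. Abhd11os and Gt(ROSA)26Sor lie far from 0 while their neighbours lie near it, and 5033421B08Rik and Slc7a15 lie in opposite directions.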

How the data were processed

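RNA of 6 libraries was sequenced as paired reads of 150 bases. The authors deposited FPKM values per gene, and the labels' processing notes name HISAT2, HTSeq, DESeq2, R 3.2.0 and mm10, with no strand setting. No column of other samples was present. Fragments per gene were computed from the steps of the FPKM values and are known up to a factor shared by a gene's libraries. Intervals were not derived from them, and depth differed little between libraries. Groups were compared with limma-trend (limma 3.58.1, R 4.3.3) on log2(FPKM + 1) for genes whose mean was 1 or more, with no replicate term and with Benjamini-Hochberg adjustment over all tested genes. A fold change on this scale understates that of low genes. Since the table holds FPKM and no counts, limma-voom on the fragments was an alternative only. It and the other steps were tested on simulated data.

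The members and lists were chosen with earlier results of these data known. Named were the 12 largest rises and falls among called members whose groups did not overlap, the 12 highest means, listed members, those at the limit and their coding neighbours, except 1 member that is not reported here. Gm36220, Rab26os, Gm53208, 2010103J01Rik, Gm49890, 2810001A02Rik, Tnfsf13os, Gata6os, Gm11695, Gm9926, pairs with opposite directions and the nearest coding genes with Gm28285 were chosen after their values were seen. Positions and sequences come from RefSeq on GRCm38.p6 and GENCODE vM21.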

Additional observations from a re-analysis of the deposited data

How the results depend on the processing

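Alternatives were upper-quartile scaling, no filter, a filter at a mean of 5 FPKM, a pseudocount of 0.1, limma-voom on fragments, a replicate block, leaving out each library, a fold threshold of 1.5, and other member sets. Of 48 members named by rule, 42 kept direction and call in each of the 12 other fits (scalings, filters, pseudocount, voom, block and libraries left out). Of all tested genes, 215 were higher past 2-fold with the filter at 5, 727 with limma-voom and 676 with a pseudocount of 0.1. At 1.5-fold 1502 were higher and 855 lower, and 18 members were higher. At a mean of at least 3 FPKM, 53 of 139 members were higher and 48 lower. At a mean of at least 10, 17 of 41 members were higher and 15 lower, 3 and 6 past 2-fold. Of 55 members outside exons of other, protein-coding genes, 25 were higher and 15 lower, 3 and 6 past 2-fold. Under upper-quartile scaling 20 of them were higher and 21 lower. Of the 32 members in such exons, 14 were higher and 13 lower, 2 and 6 past 2-fold, and under that scaling 13 were higher and 15 lower. The difference between these sets was not tested. Under upper-quartile scaling 4 snoRNA hosts were lower. Among the 48 members named by rule, the values of 2 that were not called changed sign, Snhg12 to 0.0271 without control replicate 3 (range -0.0316 to 0.0271 over libraries left out) and Malat1 to 0.0375 without MMK-1 replicate 3 (range -0.1201 to 0.0375). Some other members that were not called changed sign under upper-quartile scaling. Leaving out a library gave 37 to 40 members higher and 26 to 29 lower, 4 to 5 and 11 to 12 past 2-fold. With the replicate block 40 members were higher and 29 lower. Deviations of same-numbered libraries correlated at 0.03, -0.04 and 0.03, and those of other pairs at -0.06 to 0.06. With 3 libraries in each group this cannot show whether same-numbered samples share mice or cultures.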
